A study of Mus musculus with 2 samples.

Results

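Immediate early genes are the first genes a cell transcribes after a stimulus, because the factors that switch them on are already present and need only to be phosphorylated or moved to the nucleus. Calcium entry and cyclic AMP act through CREB, and growth factor and stress kinases act through the serum response factor and its partners. Most of their transcripts are short lived, and many encode transcription factors that then act on later genes. In islets they are known to respond to glucose, membrane depolarization and incretin hormones, and in any tissue also to the enzymatic digestion used to free single cells. The 10 genes described here were chosen by name, with results of these data in view, and all 10 were found among the 27998 genes of the count matrices. They are Fos, Fosb, Jun and Junb, which encode subunits of the transcription factor AP-1, Egr1, Ier2, Atf3, Npas4, Nr4a1 and Btg2.

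The data are single-cell RNA-Seq counts of islet cells from WT mice and from ghrelin-knockout (GKO) littermates, born of crosses between GKO heterozygotes on a C57BL/6N background. Islets of 4 male mice at 8 weeks of age, fed standard chow ad libitum, were pooled per genotype, digested with collagenase, handpicked, dissociated with Accutase and sorted for viable cells, so that each genotype is 1 library. The sort took in more GKO than WT cells but gave fewer viable single GKO cells, for a reason the authors call unclear. Any effect of this on the 10 genes was not tested. Every captured transcript carries a unique molecular identifier (UMI), and levels are given as UMIs per 1000000 UMIs (CPM). The WT library held 7792 cell barcodes with 158067110 UMIs and the GKO library 7289 barcodes with 103511757 UMIs, of which 7100 and 6346 were kept at 500 or more genes and at most 10% mitochondrial UMIs.

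With 1 library per genotype, the difference between mice or between preparations cannot be measured, and genotype and library cannot be told apart. The values are therefore given without p-values. The 95% intervals are exact Poisson or binomial intervals that cover counting error only, and a difference is called past the fold where it reached 1.5-fold in either direction. In the check of the labels, Ghrl, which encodes ghrelin, had 276 CPM in WT and 2.71 CPM in GKO, and 276 of its 280 GKO UMIs lay in 1 barcode. The libraries shared 18 barcode sequences, and without those barcodes no ratio left its interval and no count moved.

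Barcodes were sorted by their leading hormone, where it made up at least 10% of UMIs. This gave 2265 WT and 872 GKO β barcodes (Ins1 and Ins2), 1048 and 1397 α barcodes (Gcg), 1414 and 1003 δ barcodes (Sst), 717 and 669 γ barcodes (Ppy), and 1656 and 2405 nonendocrine barcodes. Genes highest in each class against the others were known genes of that cell type, such as G6pc2 and Ucn3 in β barcodes and Irx1 and Irx2 in α barcodes. Among nonendocrine barcodes, marker lists gave endothelial-like barcodes (578 WT and 437 GKO), activated stellate-like (271 and 608), quiescent stellate-like (182 and 320), macrophage-like (200 and 452) and ductal-like barcodes (143 and 163). In the remaining nonendocrine barcodes, 157 in WT and 250 in GKO could not be assigned. Doublets were not called, but in the hormone classes levels are also given apart for barcodes in which another hormone reached 5% of UMIs. These were 22.9% of WT and 19.7% of GKO δ barcodes, 18.5% and 14.1% of γ, 13.0% and 10.0% of α, and 9.49% and 9.98% of β barcodes. Of ductal-like barcodes 13.3% and 13.5% had 2 hormones at 5% or more, and these are not given apart.

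Promoter sequences are shown first because the 10 genes are known for compact promoters that carry the sites through which stimuli act. RefSeq promoter windows on GRCm38.p6 (mm10) were at hand for 8 of the 10 genes, all but Egr1 and Ier2, and the 250 bases before each transcript start were searched on both strands. The letters TGACG are the core of the cAMP response element (CRE) that CREB binds. They were found in 7 of 8 windows, those of Fos, Fosb, Junb, Npas4, Nr4a1, Atf3 and Btg2, against 17.9% of 27025 windows of the same length. Those 27025 windows were not matched to the members for base content, and the 7 include Npas4, whose window lies in an annotated exon. Annotated exons also hold 7 bases of the Atf3 window and 6 of the Fosb window. The only Atf3 match lies 7 to 3 bases before the start. The whole palindrome TGACGTCA, which holds TGACG on each strand, was found in 1 of 8, in Btg2, against 1.62% of windows. The letters TATAAA were found in Fos alone, against 13.0% of windows. The AP-1 site (TGANTCA), the CArG box of the serum response factor and the NBRE bound by Nr4a1 (AAAGGTCA) had no match in the 8 windows, against 6.87%, 1.40% and 1.31% of all windows. A match is a description of the letters and not of binding. Sites further upstream were not searched, so the absence of a match holds for these windows and letters only. The windows printed here are those of Fos, as the best known member, of Nr4a1, whose 4 matches were the most, and of Btg2, with capitals for TGACG or its complement CGTCA, the whole palindrome and TATAAA. None of the 250 bases of these windows lies in an exon of the GENCODE annotation. For Npas4 only the stretch with its matches is shown, bases 186 to 157 before the RefSeq start, since all 250 bases of that window lie in an exon of GENCODE.
Fos, chr12:85473640-85473889, plus strand: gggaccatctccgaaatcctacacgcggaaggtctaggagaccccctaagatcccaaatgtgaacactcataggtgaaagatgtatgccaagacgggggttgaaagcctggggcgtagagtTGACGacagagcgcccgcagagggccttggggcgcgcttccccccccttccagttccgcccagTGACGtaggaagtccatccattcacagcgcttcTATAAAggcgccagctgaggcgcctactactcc
Nr4a1, chr15:101266596-101266845, plus strand: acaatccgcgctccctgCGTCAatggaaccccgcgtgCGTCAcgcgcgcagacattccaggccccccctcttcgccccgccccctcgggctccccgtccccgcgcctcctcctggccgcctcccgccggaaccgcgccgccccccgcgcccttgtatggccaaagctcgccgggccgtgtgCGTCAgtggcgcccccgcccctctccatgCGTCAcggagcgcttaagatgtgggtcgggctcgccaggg
Btg2, chr1:134079156-134079405, minus strand: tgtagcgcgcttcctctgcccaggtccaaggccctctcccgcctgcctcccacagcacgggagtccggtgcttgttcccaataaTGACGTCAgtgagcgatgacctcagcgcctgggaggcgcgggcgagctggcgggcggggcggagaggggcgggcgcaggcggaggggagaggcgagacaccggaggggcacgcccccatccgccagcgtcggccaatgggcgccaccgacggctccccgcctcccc
Npas4, chr19:4990128-4990157, minus strand: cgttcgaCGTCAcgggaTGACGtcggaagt

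In both libraries the 10 genes together were lowest in β barcodes and highest in ductal-like, macrophage-like and stellate-like barcodes, of the 9 classes compared. Their summed level was 667 CPM in WT β barcodes and 646 CPM in GKO β barcodes, 3229 and 3853 CPM in α, 3395 and 2879.7 CPM in δ, and 7215 and 7953 CPM in γ barcodes. Nonendocrine barcodes held 13299 and 14477 CPM, and the 5 marker classes compared ran from 11544 and 10632 CPM in the endothelial-like class to 20301 and 25649.6 CPM in the ductal-like class. Small marker classes that were not compared could be far lower, such as B cell-like barcodes with 2386 and 4720 CPM. Because hormone transcripts take 59.2% to 61.3% of the UMIs of β barcodes, the levels were also computed without the 5 hormone genes. On that scale β barcodes had 1721 CPM in WT and 1581 CPM in GKO, α barcodes 4495 and 5381, δ barcodes 4373 and 3692, and γ barcodes 11427 and 12402 CPM, so β barcodes were lowest and γ barcodes highest on both scales and in both libraries. In WT, α barcodes were below δ barcodes over all UMIs and above them without hormones. Within WT the γ level without hormones lay close to the endothelial-like level of 11683 CPM.

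Over all barcodes, kept or not, the 10 genes summed to 3351 CPM in WT and 5557 CPM in GKO. That difference stands beside the make-up of the libraries: β barcodes were 31.9% of kept WT and 13.7% of kept GKO barcodes, and nonendocrine barcodes 23.3% and 37.9%. Within classes the ratios were far smaller. The log2 ratio of GKO to WT of the sum was −0.05 in β, 0.26 in α, −0.24 in δ, 0.14 in γ and 0.12 in nonendocrine barcodes. In nonendocrine barcodes it was 0.04 when the GKO levels of the marker classes were weighted by the WT make-up, in which the endothelial-like class held 28.3% of UMIs against 16.7% in GKO.

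**Figure D1:**
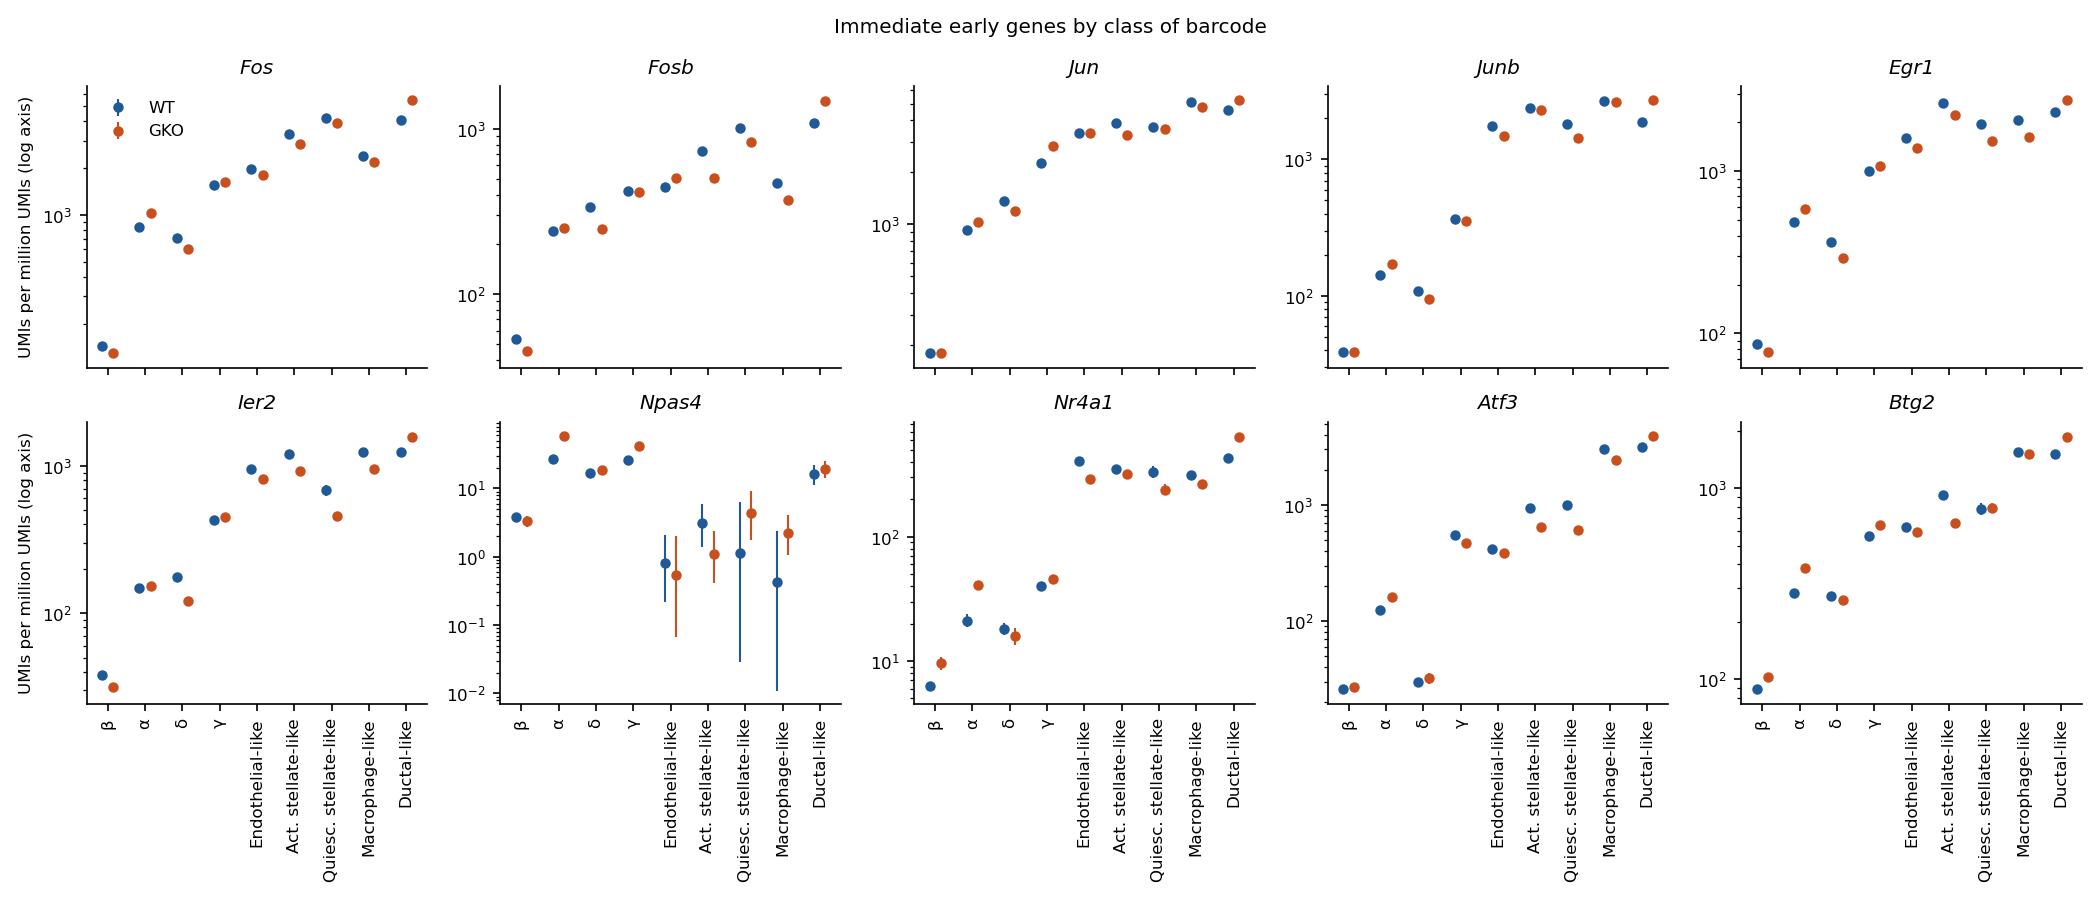
Level of each of the 10 genes (CPM, log axis) in the 4 hormone classes and 5 marker classes of nonendocrine barcodes, with WT and GKO points and 95% Poisson intervals for counting error only. The order of the classes was alike for most genes, lowest in β and highest in ductal-like, macrophage-like or stellate-like barcodes, while Npas4 peaked in α and γ barcodes.

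AP-1 binds DNA as a pair of a Fos and a Jun protein or of Jun proteins. Fos had 144 CPM in WT and 130 CPM in GKO β barcodes, 832 and 1024 in α, 707 and 604 in δ, and 1562 and 1625 in γ barcodes. The GKO level was thus higher in α barcodes (log2 ratio 0.30, 0.27 to 0.33) and lower in δ barcodes (−0.23, −0.27 to −0.18). Without hormones, Fos spanned 11.5-fold across the classes in WT, from β to ductal-like barcodes.

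Fosb, a Fos relative with a more sustained response in neurons, had 53.5 CPM in WT and 45.0 in GKO β barcodes, 240 and 251 in α, 335 and 247 in δ, and 422 and 417 in γ barcodes. Its ratio in δ barcodes was −0.44 (−0.51 to −0.38), further from 0 than that of Fos. Jun, the partner of the Fos proteins, had 181 CPM in both β libraries, 931 and 1029.6 in α, 1364 and 1196 in δ, and 2254 and 2839.9 in γ barcodes. In γ barcodes its ratio was 0.33 (0.31 to 0.35), on 38915 WT and 44188 GKO UMIs. Junb, a Jun relative that can restrain Jun, had 38.6 and 38.8 CPM in β, 142 and 171 in α, 108 and 94.2 in δ, and 363 and 356 in γ barcodes. Its ratio was 0.27 (0.19 to 0.35) in α barcodes and −0.20 (−0.31 to −0.09) in δ barcodes. Among hormone classes the 4 AP-1 genes were thus all lowest in β and highest in γ barcodes, and the libraries differed by less than β and γ barcodes did.

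Egr1, a zinc finger transcription factor induced by glucose and calcium in β cells, had 86.1 CPM in WT and 76.8 in GKO β barcodes, 483 and 581 in α, 366 and 291 in δ, and 1003 and 1069 CPM in γ barcodes. Its ratio was 0.27 (0.22 to 0.31) in α and −0.33 (−0.39 to −0.27) in δ barcodes. Ier2, a nuclear protein of the early response, had 38.0 and 31.6 CPM in β, 147 and 153 in α, 177 and 121 in δ, and 430.1 and 449.5 in γ barcodes. In δ barcodes it had the lowest ratio of the 10 genes in any hormone class, −0.55 (−0.64 to −0.45), just short of 1.5-fold.

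Atf3, a bZIP factor of the stress response, had 26.2 CPM in WT and 27.0 in GKO β barcodes, 124 and 161 in α, 29.7 and 32.1 in δ, and 555 and 466 in γ barcodes. Its γ level was more than 10 times its δ level in each library. Over all UMIs it had the widest span of the 10 genes across the 9 classes, 120-fold in WT, and without hormones it spanned 86.5-fold. In γ barcodes the GKO level was lower (−0.25, −0.30 to −0.21) and in α barcodes higher (0.37, 0.29 to 0.46). Btg2, an antiproliferative protein that works with the CCR4-NOT deadenylase, had 88.9 and 103 CPM in β, 281 and 383 in α, 273 and 261 in δ, and 561 and 643 in γ barcodes. Its ratio was 0.45 (0.39 to 0.50) in α and 0.21 (0.15 to 0.27) in β barcodes, and without hormones its WT span of 6.93-fold was the smallest of the 10 genes.

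Npas4, a bHLH-PAS transcription factor that calcium entry induces in excitable cells, was the member with the largest difference between the libraries in α barcodes. It had 27.4 CPM (397 UMIs) in WT and 57.5 CPM (1077 UMIs) in GKO α barcodes, which is 2.10-fold higher in GKO (1.87 to 2.36). In γ barcodes it had 26.3 CPM (454 UMIs) and 41.4 CPM (644 UMIs), a log2 ratio of 0.65 (0.48 to 0.83). In δ barcodes it had 16.9 and 18.8 CPM (0.15, −0.11 to 0.42), and in β barcodes 3.80 and 3.32 CPM (−0.19, −0.52 to 0.12). Both intervals include 0, and at these counts no difference was detectable in δ or β barcodes. Among 10670 genes with at least 100 UMIs in α barcodes, Npas4 ranked 22 and Nr4a1 ranked 41 by their GKO to WT ratio.

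Ordered by its level without hormones, Npas4 in WT was highest in γ (41.6 CPM) and α barcodes (38.1 CPM), whose intervals overlapped, followed by δ (21.7 CPM) and ductal-like barcodes (16.9 CPM), which also overlapped, and by β barcodes (9.80 CPM). In GKO the order was α (80.3 CPM), γ (64.5 CPM), δ (24.1 CPM), ductal-like (20.2 CPM) and β barcodes (8.14 CPM), and again δ and ductal-like barcodes overlapped. The remaining 4 classes were at most 4.44 CPM in either library. The other 9 members were highest outside the endocrine classes. In WT this was in ductal-like barcodes (Fos, Fosb, Ier2, Nr4a1, Atf3 and Btg2), in macrophage-like barcodes (Jun and Junb) or in activated stellate-like barcodes (Egr1), and in GKO all 9 were highest in ductal-like barcodes. The WT intervals of Fos, Ier2, Nr4a1 and Btg2 overlapped with those of the next class. For the genes highest in WT ductal-like barcodes, the 1 barcode with most of a gene held from 5.76% (Fos) to 13.3% (Nr4a1) of its UMIs there. It held 11.5% for Btg2 and 9.89% for Atf3, and the intervals do not cover this. Over all UMIs, WT Fos was highest in quiescent stellate-like (4213 CPM) and WT Btg2 in macrophage-like barcodes (1538 CPM).

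Nr4a1, an orphan nuclear receptor induced by calcium and cAMP, had 21.2 CPM (307 UMIs) in WT and 40.6 CPM (761 UMIs) in GKO α barcodes, 1.92-fold higher in GKO, with a log2 ratio of 0.94 (0.75 to 1.14). In β barcodes it had 6.28 and 9.57 CPM, a ratio of 0.61 (0.40 to 0.81) on 559 and 314 UMIs. This ratio was under 1.5-fold with stricter limits on barcodes (0.44), equal weight of barcodes (0.49), TMM factors (0.52) and a total without hormone genes (0.53), and with free RNA subtracted nothing was left of the WT level, so that no ratio could be given. In δ barcodes it had 18.1 and 15.8 CPM (−0.19, −0.47 to 0.08), and in γ barcodes 40.1 and 45.3 CPM (0.17, 0.02 to 0.33). Nr4a1 and Npas4 were thus the members furthest apart between the libraries in α barcodes, and they shared no other class in which both passed the fold.

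The share of barcodes with a UMI gave the same picture for both genes after each barcode was thinned to 5000 UMIs. Npas4 was found in 10.0% (8.27% to 12.0%) of 1037 WT and 19.1% (17.1% to 21.3%) of 1382 GKO α barcodes, and in 8.66% and 15.1% of γ barcodes. Of the α barcodes, 11 in WT and 15 in GKO were shallower and left out, and unthinned shares were 19.1% and 30.8%. In δ barcodes the shares were 5.01% and 5.75%, and in β barcodes 1.46% and 1.38%. As a measure of background from free RNA, Npas4 was found in 0.463% of WT and 0.314% of GKO endothelial-like barcodes, whose median depths were 7013 and 7333 UMIs against 12502.5 and 12174 in α barcodes, and of which 146 and 119 were left out as shallower. It was in 0 of 190 thinned WT macrophage-like barcodes, where 3 counts would be a share of 1.58% and the exact 95% upper limit for barcodes with a UMI is 1.92%, and in 0.471% of GKO ones.

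Nr4a1 was found in 6.75% of WT and 15.3% of GKO α barcodes at 5000 UMIs (14.9% and 28.6% unthinned), and in 2.35% and 4.02% of β, 6.16% and 5.44% of δ, and 14.1% and 17.1% of γ barcodes. Unlike Npas4, it was far more widely found outside the endocrine classes, in 75.7% and 64.2% of endothelial-like and 53.2% and 53.2% of macrophage-like barcodes. At 2000 UMIs Npas4 was in 3.53% and 8.89% and Nr4a1 in 3.92% and 6.95% of α barcodes, so the GKO shares stayed above the WT ones. Of all Npas4 UMIs in kept barcodes, α barcodes held 25.5% in WT and 49.9% in GKO and nonendocrine barcodes 5.64% and 5.65%, while nonendocrine barcodes held 75.1% and 78.8% of the Nr4a1 UMIs.

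**Figure D2:**
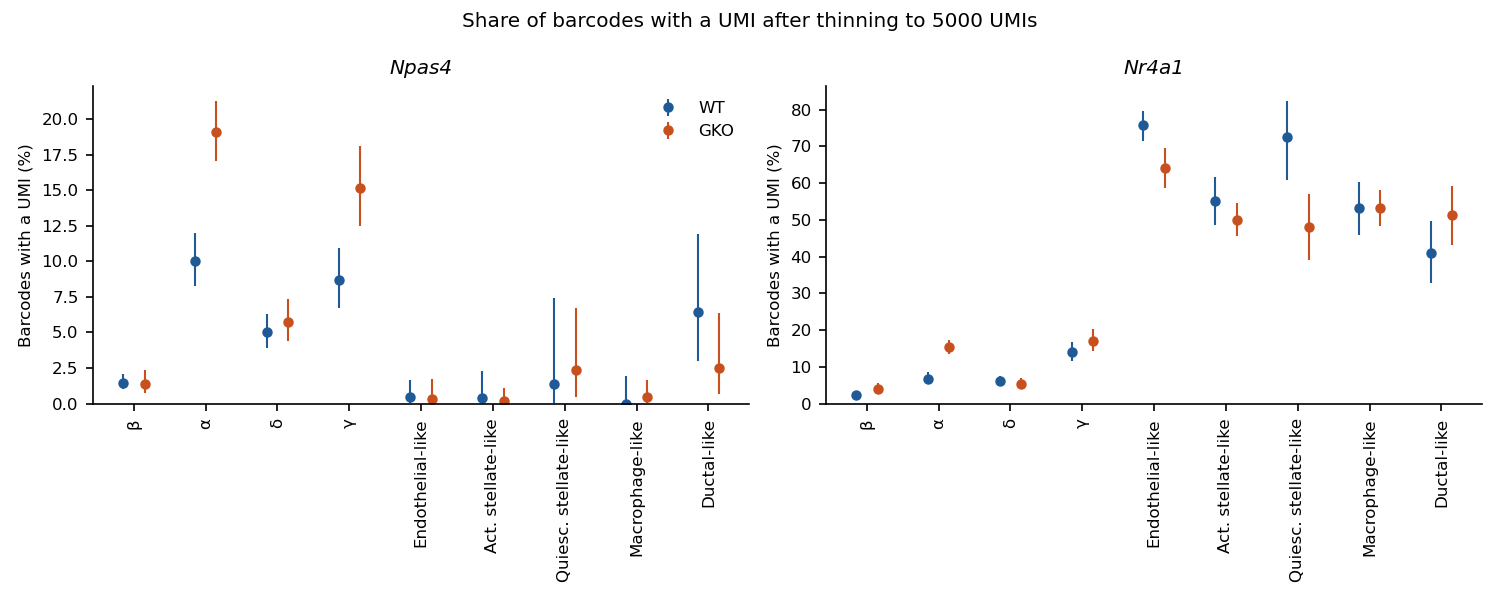
Percent of barcodes with at least 1 UMI of Npas4 or Nr4a1 by class, each barcode thinned to 5000 UMIs, with exact binomial 95% intervals for WT and GKO. In α barcodes the share was 10.0% in WT and 19.1% in GKO for Npas4 and 6.75% and 15.3% for Nr4a1, while in δ barcodes the intervals of the libraries overlapped.

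The difference in Npas4 between the α classes was also seen in subsets of barcodes. The barcode with most Npas4 held 7 of the WT and 16 of the GKO α UMIs. Without hormones, α barcodes under 10000 UMIs had 50.3 CPM Npas4 in WT and 109 in GKO, and those with 10000 to 30000 UMIs had 37.0 and 74.8 CPM. At 2% to 4% mitochondrial UMIs the levels were 31.8 and 73.6 CPM and above 4% they were 44.1 and 84.1 CPM. In α barcodes with another hormone at 5% or more they were 23.5 and 65.4 CPM, and in the rest 41.3 and 82.9 CPM. The GKO level was higher in each of these 6 bins. Nr4a1 was also higher in GKO in all 6, but by little where another hormone reached 5% of UMIs, with 42.1 CPM in WT and 45.4 CPM in GKO.

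In α barcodes all 10 genes had a ratio above 0, beside 59.1% of all genes with at least 20 UMIs. Of their intervals 9 of 10 lay above 0, for which no share of all genes was computed. Past the fold were 2 of 10, both upward, against a background of 4.72% of all genes upward and 9.41% either way. The median log2 ratio of the 10 genes was 0.29, beside 0.05 over all genes. In δ barcodes 2 of 10 were above 0 (56.5% of all genes) and 6 intervals lay below 0. No share of all genes was computed for that either, so neither count of intervals sets these genes apart. None of the 10 genes was past the fold in δ barcodes (background 8.97%), with a median of −0.20 beside 0.03. In γ barcodes 7 of 10 were above 0 (62.0% of all genes) and 1 was past the fold (background 9.07%), with medians of 0.08 and 0.06. In β barcodes 4 of 10 were above 0 (66.5% of all genes) and 1 was past the fold (background 11.0%), with medians of −0.08 and 0.08. These backgrounds include genes with fewer UMIs than any of the 10 genes. At 100 UMIs or more, 3.39% of genes were past the fold in α, 3.13% in δ, 2.92% in γ and 4.64% in β barcodes. For 7 of the 10 genes (Fos, Fosb, Jun, Junb, Egr1, Ier2 and Atf3) the interval lay above 0 in 1 hormone class and below 0 in another, as it did for 4.11% of all genes with at least 20 UMIs in each class. Intervals narrow with depth, and at 500 UMIs or more in each class this held for 7 of 8 members and 6.65% of all genes. Most of these members held far more UMIs than that limit, so neither share of all genes is matched to them in depth. The members are not replicates of each other, since they share libraries and inputs.

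The direction in δ barcodes depended on the somatostatin share. Where Sst made up 10% to 25% of UMIs, the 10 genes summed to 3524 CPM in 1308 WT and 2962 CPM in 913 GKO barcodes. Where it made up 25% or more, they summed to 1938 CPM in 106 WT and 2133 CPM in 90 GKO barcodes, so that GKO was higher (log2 ratio 0.14). In α barcodes GKO was higher in both ranges of Gcg, with 4094 and 4816 CPM at 10% to 25% and 2350.5 and 3134 CPM at 25% or more. In γ barcodes it was also higher in both ranges of Ppy, with 6869.9 and 7255 CPM and with 7308 and 8127 CPM. Without hormones, δ barcodes with another hormone at 5% of UMIs or more had 4627 CPM in WT and 4252 in GKO, and the rest 4299 and 3553 CPM. For γ barcodes these levels were 8457 and 9318 CPM, and 12171.5 and 13078 CPM.

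**Figure D3:**
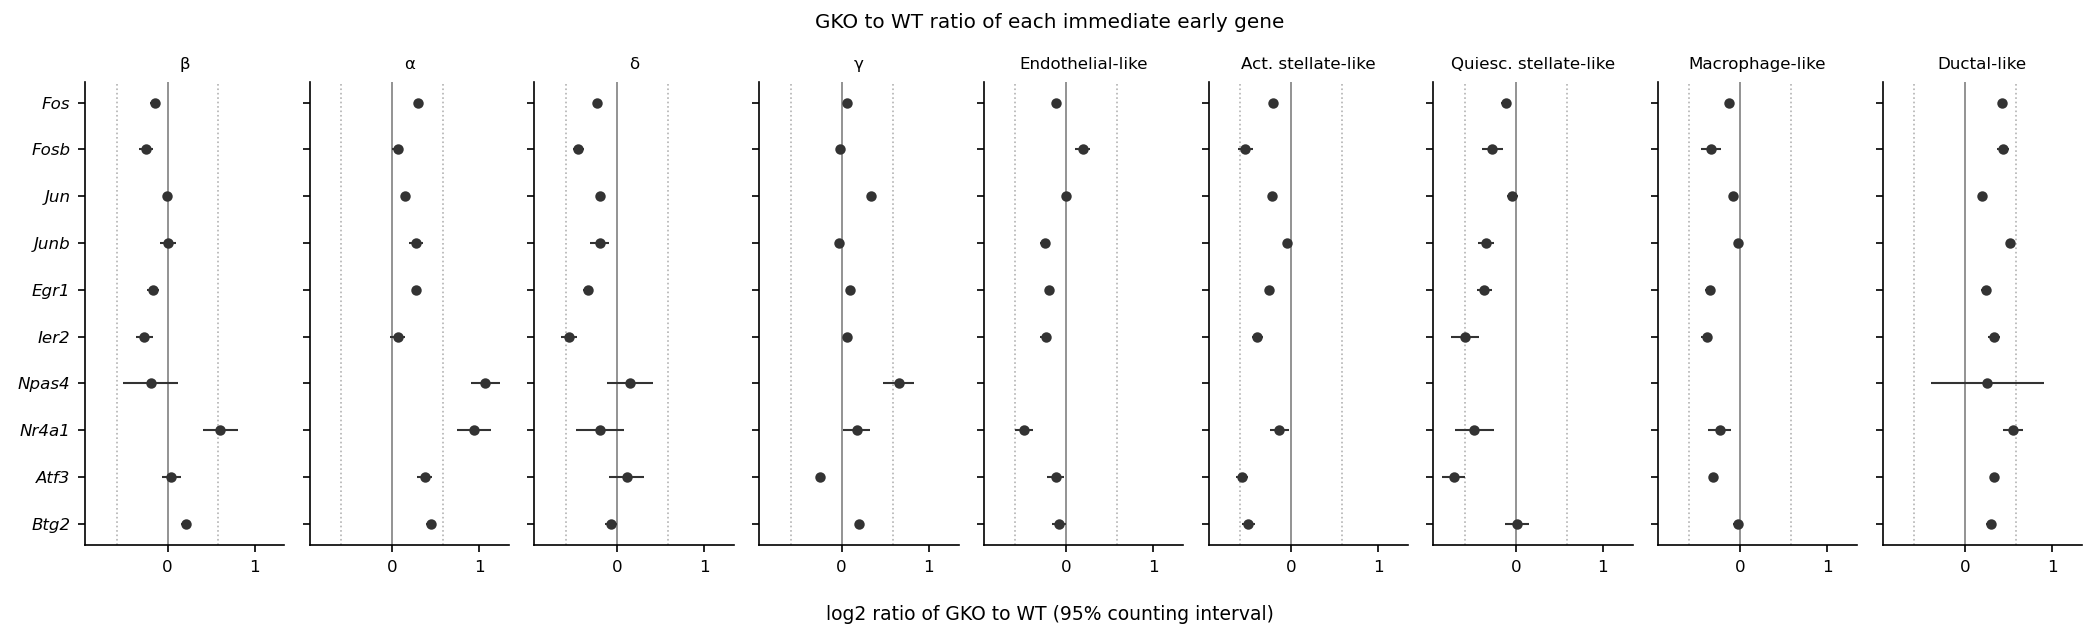
Log2 ratio of GKO to WT of each gene in the 4 hormone classes and 5 marker classes, with 95% intervals for counting error only and dotted lines at 1.5-fold. All 10 points lay above 0 in α and in ductal-like barcodes, most lay below 0 in δ barcodes, and none of the 9 genes with enough UMIs lay above 0 in activated stellate-like and macrophage-like barcodes.

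In β barcodes the levels differed with the insulin share and with the presence of another hormone, and in GKO also with the mitochondrial share and depth. Without hormones the 10 genes had 785 CPM in WT and 609 CPM in GKO barcodes with over 60% insulin UMIs (1270 and 447 barcodes), and 2594 and 2262 CPM at 25% to 60% (942 and 388 barcodes). Barcodes with another hormone at 5% or more had 3927 and 3445 CPM, and the others 1377 and 1234 CPM. At up to 2% mitochondrial UMIs the levels were 1582 CPM in WT and 639 CPM in GKO (353 and 65 barcodes). They were 1751 and 1588.5 CPM at 2% to 4%, and 1735 and 1851 CPM above 4%, where GKO was higher. With 10000 to 30000 UMIs they were 1747 and 1185 CPM, and with 30000 or more 1713 and 1700 CPM. The 10% of β barcodes with the most Fos held 56.8% of its UMIs in WT and 62.6% in GKO, against 25.7% and 25.4% in γ barcodes. At 5000 UMIs, hormone transcripts included, no member was found in 29.5% of WT and 30.3% of GKO β barcodes.

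RNA freed from broken cells was estimated from foreign hormones. If all glucagon UMIs of β barcodes were free RNA with the profile of the whole library, such RNA would supply 75.1% of the members' UMIs in WT and 76.7% in GKO β barcodes, and by the lowest foreign hormone 21.4% and 27.8% of those with over 60% insulin. In the other classes the same estimate was at most 6.20%. The β levels of the 10 genes are therefore given as measured UMIs, and how much of them comes from β cells was not tested.

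**Figure D4:**
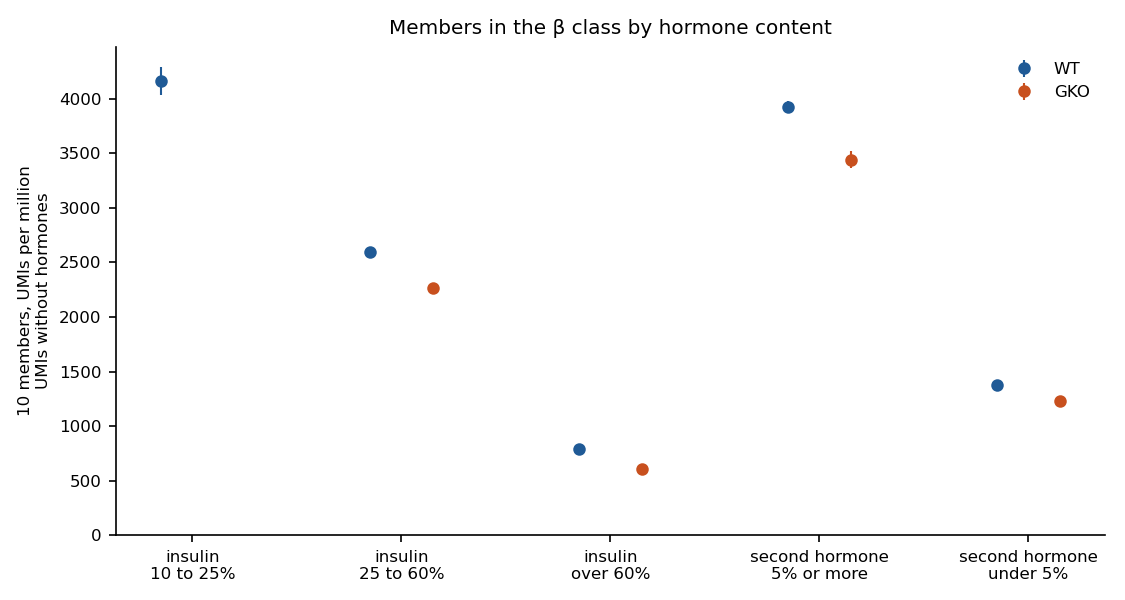
Summed level of the 10 genes in β barcodes (CPM over UMIs without hormone genes) by insulin share and by presence of another hormone at 5% of UMIs, for WT and GKO, with 95% Poisson intervals. The level was lowest above 60% insulin, with 785 CPM in WT and 609 CPM in GKO, and highest in barcodes with little insulin or another hormone, and the GKO class with 10% to 25% insulin is not plotted because it held 37 barcodes.

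Single barcodes also held the fewest members in the β class and the most, among hormone classes, in the γ class. The 5000 UMIs of a thinned barcode include hormone transcripts. These were 61.3% of WT and 59.2% of GKO β UMIs, but 36.9% and 35.9% of γ UMIs, which lowers detection in β barcodes. Counts per barcode without hormones were not made. At 5000 UMIs a WT β barcode held 1.72 ± 1.80 of the 10 genes (mean ± SD over barcodes) and a GKO one 1.57 ± 1.72. Barcodes of the α class held 4.52 ± 1.90 in WT and 5.14 ± 1.87 in GKO, δ barcodes 3.91 ± 1.90 and 3.47 ± 2.01, and γ barcodes 6.32 ± 1.59 and 6.43 ± 1.60. At least 5 of the 10 genes were found in 51.7% of WT and 64.1% of GKO α barcodes, in 38.2% and 29.4% of δ, and in 88.5% and 89.2% of γ barcodes. The SD is a spread among barcodes of 1 library and not among mice.

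**Figure D5:**
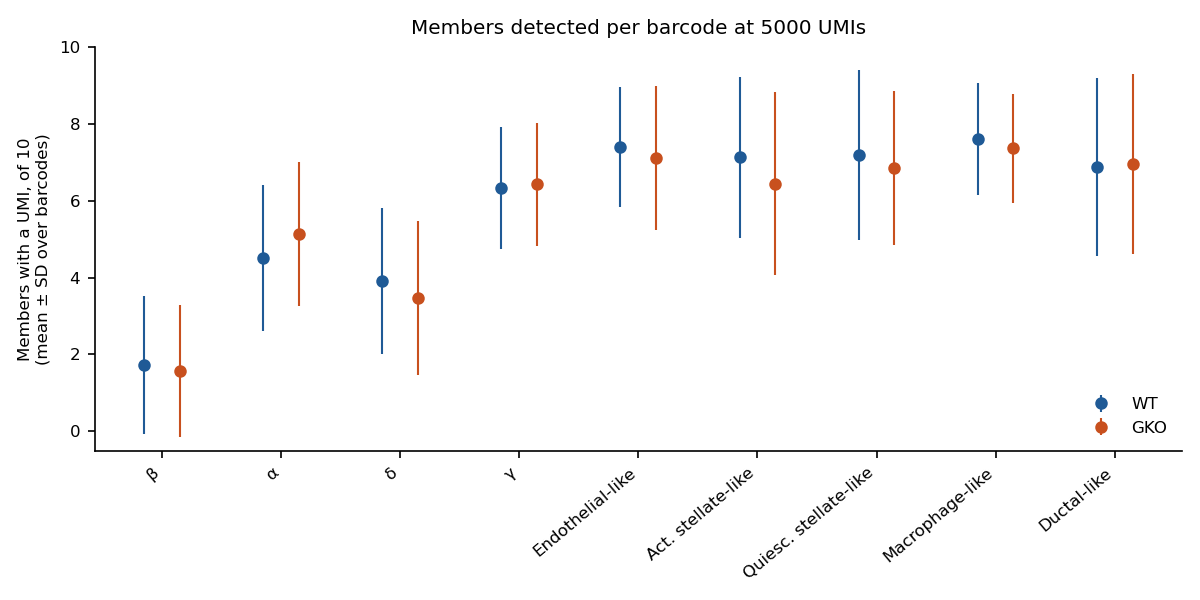
Number of the 10 genes found per barcode at 5000 UMIs, hormone transcripts included, by class, as mean and SD over barcodes of each library. The means were 1.72 and 1.57 in WT and GKO β barcodes and 6.32 and 6.43 in γ barcodes, and the SDs of the libraries overlapped in every class.

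Within classes the members were correlated across barcodes to different degrees. These correlations describe barcodes that share a library and were thinned to 1 depth. The median Pearson correlation over all pairs of members at 5000 UMIs was 0.353 in WT and 0.286 in GKO β barcodes, 0.175 and 0.202 in α, 0.230 and 0.245 in δ, and 0.138 and 0.112 in γ barcodes, over 667 to 2258 barcodes a set. It was highest in ductal-like barcodes, 0.657 over 139 WT and 0.734 over 158 GKO barcodes, where Fos and Junb reached 0.832 and 0.795. Among endocrine classes Jun and Egr1 were a close pair, at 0.523 and 0.544 in δ barcodes. The median correlation of Npas4 with the other members was 0.0416 in WT and 0.123 in GKO α barcodes, −0.0108 and 0.0362 in γ, 0.155 and 0.223 in δ, and 0.0633 and 0.0598 in β barcodes, and its counts are sparse.

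The genes most like the summed members across barcodes, by the median correlation over 8 sets of hormone class and library among 7759 genes, were heat shock genes. Hspa1b (0.587), Hspa1a (0.562) and Dnajb1 (0.550), which encode chaperones of the HSP70 system, came first, and then Jund (0.513), a further AP-1 subunit. Hsp90aa1, Hsp90ab1, Hspa8 and Dnaja1 lay between 0.496 and 0.443, and Actb had 0.415. The median over all 7759 genes was 0.015. Of these 9 genes 7 were on the list of 14 heat shock genes known from tissue dissociation. That list summed to 8824 CPM in WT and 9307 in GKO α barcodes, 9703 and 8493 in δ, 3291 and 3444 in β, and 20210.4 and 20354 in γ barcodes. In δ barcodes 1 of the 14 had a ratio above 0, beside 56.5% of all genes. In α barcodes it was 9 of 14 (59.1% of all genes), in γ barcodes 9 of 14 (62.0%) and in β barcodes 8 of 14 (66.5%). The part of the heat shock genes in the members' ratios was not tested.

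In nonendocrine barcodes pooled, 9 of 10 members had a ratio above 0 (50.2% of all genes). None was past the fold (background 18.2%, and 13.2% of genes with at least 100 UMIs). The marker classes differed among themselves. In ductal-like barcodes, which carried Krt19 and Sct, 10 of 10 ratios lay above 0, beside 61.0% of all genes. None was past the fold (background 18.2%, and 10.3% of genes with at least 100 UMIs). The median was 0.33 beside 0.10 over all genes. Nr4a1 had 431 CPM in WT and 629 in GKO (0.55, 0.43 to 0.66), Junb 1899 and 2723 CPM (0.52, 0.47 to 0.57) and Fos 4073 and 5475 CPM (0.43, 0.39 to 0.46). Jun was nearest to 0, with 0.19. The heat shock list went the other way in that class, with 21288 CPM in WT and 17988 CPM in GKO and 2 of 14 ratios above 0. Npas4 had 39 and 47 UMIs there, in a class in which 5.30% and 5.57% of UMIs were of hormone genes.

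In activated stellate-like barcodes, which carried Col1a1, Dcn and Lum, 0 of 9 ratios lay above 0, beside 58.6% of all genes. None was past the fold (background 18.7%, and 10.7% of genes with at least 100 UMIs). The median was −0.25 beside 0.07. The ratios ran from −0.05 for Junb to −0.56 (−0.64 to −0.49) for Atf3, which had 945 CPM in WT and 639 CPM in GKO. Quiescent stellate-like barcodes carried Rgs5 and Myh11, and 1 of 9 ratios lay above 0 in them, beside 54.7% of all genes. In this class 1 was past the fold (background 16.6%, and 5.50% of genes with at least 100 UMIs). It was Atf3, at 991 CPM in WT and 606 in GKO (−0.71, −0.84 to −0.58), and Ier2 had 681 and 455 CPM (−0.58, −0.74 to −0.42). The median mitochondrial share of that class was 5.12% in WT and 5.44% in GKO, and among barcodes with 1000 genes or more and 5% mitochondrial UMIs or less the ratio of the sum turned from −0.21 to 0.08, with Fos at 0.14, Jun at 0.35 and Junb at 0.13. The heat shock list was also lower in GKO, with 0 of 14 ratios above 0 in the activated and 5 of 14 in the quiescent class.

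In macrophage-like barcodes, which carried C1qb, Csf1r and Adgre1, 0 of 9 ratios lay above 0, beside 58.0% of all genes. None was past the fold (background 18.8%, and 9.10% of genes with at least 100 UMIs). Ier2 had 1245 CPM in WT and 951 in GKO (−0.39, −0.46 to −0.32), Atf3 3011 and 2412 CPM, and Junb was nearest to 0 with −0.02. In endothelial-like barcodes, which carried Flt1, Kdr and Plvap, 1 of 9 lay above 0, beside 56.3% of all genes. None was past the fold (background 12.3%, and 4.75% of genes with at least 100 UMIs). Nr4a1 was furthest below 0, with 405 CPM in WT and 289 in GKO (−0.49, −0.59 to −0.38), and Fosb was above 0, with 443 and 504 CPM (0.19, 0.10 to 0.28). Npas4 had at most 10 UMIs in any library of these 4 classes and was given no ratio.

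Of the other early transcription factors listed by name, 18 of 22 measured had a ratio above 0 in α barcodes and 4 were past the fold upward, beside 59.1% above 0 and 4.72% past the fold upward over all genes, with a median of 0.16 beside 0.05. Fosl2, an AP-1 subunit, had 3.59 CPM in WT and 6.83 in GKO (0.93, 0.45 to 1.42), Nr4a2, a relative of Nr4a1, 26.1 and 40.3 CPM (0.62, 0.44 to 0.81), and Atf4, the factor of the integrated stress response, 94.7 and 136 CPM (0.53, 0.43 to 0.62). Jund was lowest at −0.18. In δ barcodes 10 of 21 were above 0 (56.5% of all genes), with a median of −0.01, and Jund had 1045 and 837 CPM (−0.32, −0.36 to −0.28). In γ barcodes 16 of 23 and in β barcodes 12 of 21 were above 0, beside 62.0% and 66.5% of all genes, with medians of 0.13 and 0.05. In ductal-like barcodes 18 of 23 were above 0 and 7 past the fold upward, beside 61.0% and 11.0% of all genes, led by Bhlhe40, a clock-linked repressor, with 79.6 CPM in WT and 221 in GKO (1.47, 1.24 to 1.72). In activated stellate-like barcodes 7 of 23 were above 0, beside 58.6% of all genes.

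Genes that early signals induce to damp themselves, such as the DUSP phosphatases and mRNA decay factors, were split in α barcodes. There 15 of 29 were above 0, beside 59.1% of all genes. Dusp6, which dephosphorylates ERK, had 8.97 CPM in WT and 17.9 in GKO (1.00, 0.70 to 1.30), while Ier3 had 19.7 and 8.11 CPM (−1.28, −1.58 to −0.99). In δ barcodes 14 of 29 were above 0 (56.5% of all genes), and Dusp1, a phosphatase of stress kinases, had 73.7 and 44.5 CPM (−0.73, −0.88 to −0.57). In β barcodes 19 of 29 were above 0 (66.5% of all genes), and Rgs2, a brake on G protein signals, had 384 and 233 CPM (−0.72, −0.76 to −0.69). In ductal-like barcodes 20 of 27 were above 0 and 11 past the fold upward, read against the same 61.0% and 11.0% of all genes, among them Pim3 with 181 and 484 CPM (1.42, 1.26 to 1.58). In activated stellate-like barcodes 11 of 29 were above 0 and 11 past the fold downward, beside 58.6% and 8.57% of all genes, among them Nfkbia, the inhibitor of NF-κB, with 949 and 404 CPM (−1.23, −1.31 to −1.15).

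On the list of activity-dependent genes of excitable cells, 16 of 24 were above 0 and 7 past the fold upward in α barcodes, beside the 59.1% and 4.72% of all genes. The list also holds the members Fos, Fosb, Egr1, Npas4 and Nr4a1. All of these are counted among the 16, and the last pair among the 7. Further genes of it, such as Nr4a2, are also on the list of other early transcription factors. The counts of this list are therefore not separate from those given above. Pde10a, also among the 7, was reported by the authors as upregulated in α, β and δ cells of these same libraries. Its values here are therefore not a separate observation. Arc, a synaptic gene of the calcium response, had 4.48 CPM in WT and 10.1 in GKO (1.18, 0.76 to 1.61), and Pde10a, a phosphodiesterase, 104 and 158 CPM (0.61, 0.52 to 0.70), while Vgf had 36.1 and 27.3 CPM (−0.40, −0.58 to −0.22). Pde10a was also higher in GKO β barcodes, with 28.5 and 53.0 CPM (0.89, 0.80 to 0.98), and in δ barcodes, with 130 and 182 CPM (0.48, 0.40 to 0.57). Arc had the opposite sign in β barcodes, with 1.25 and 0.549 CPM on 111 and 18 UMIs. Among the kinases and factors upstream of the early genes, such as the MAP kinases, CREB coactivators and Srf, 22 of 31 were above 0 in α barcodes. This stands beside 59.1% of all genes. None was past the fold, and the median of 0.05 equalled that of all genes to 2 decimals. In δ barcodes 15 of 31 were above 0 and 2 past the fold upward, beside 56.5% and 4.72% of all genes. Those past the fold were Crtc2 (0.65, 0.23 to 1.07) and Camk4 (0.63, 0.31 to 0.95).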

How the data were processed

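Islet cells of 1 WT and 1 GKO pool were profiled by droplet 3′ RNA-Seq. The authors counted UMIs with Cell Ranger 5.0.1 on mm10, and the deposited values are raw UMI counts per gene and barcode, with free RNA still in them. The annotation version is not given in the sources used here. Barcodes under 500 genes or above 10% mitochondrial UMIs were left out (692 in WT and 943 in GKO), and each of the rest was placed by its leading hormone at 10% of UMIs or more. A nonendocrine barcode took the marker class with at least 3 of 8 markers found and 2 times the marker UMIs of the next class. UMIs were summed per class and library and divided by all UMIs of the class (CPM). Log2 ratios of GKO to WT have exact conditional binomial intervals, and shares have Clopper-Pearson intervals, all at 95%. Genes with at least 20 UMIs in both libraries together were compared. Levels are of transcript 3′ ends and are not compared between genes.

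No test was possible with 1 library per genotype. The members and lists were chosen with earlier results of these data known. Members are given in full, lists by counts and medians with examples among the 3 highest and 3 lowest ratios of genes with at least 100 UMIs, and the like genes as the 10 with the highest median correlation, of which 1 is not reported here. Alternatives changed the barcode limits, hormone limit, total, scaling, weighting, depth, free RNA, fold and gene filter. The scripts were tested on simulated counts. TMM factors came from edgeR 4.0.16 in R 4.3.3, and all else from Python 3.11.15 with pandas 2.3.3, scipy 1.17.1, numpy 2.4.6 and matplotlib 3.10.9.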

Additional observations from a re-analysis of the deposited data

Results flagged for a closer look

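For 7 of the 10 genes, counting intervals lay wholly above 0 in 1 hormone class and wholly below 0 in another, as they did for 4.11% of all genes with at least 20 UMIs in each hormone class and 6.65% of those with at least 500. These shares are not matched to the members in depth. The difference of the log2 ratios of GKO to WT between α and δ barcodes was 0.53 for Fos, 0.51 for Fosb, 0.47 for Junb and 0.60 for Egr1. Between γ and δ barcodes it was 0.52 for Jun and 0.61 for Ier2. For Atf3 it was 0.62 between α and γ barcodes. None of these differences was tested, since each class is 1 library per genotype. With the leading hormone at 25% of UMIs or more, the δ ratios of Fos, Jun, Junb, Egr1 and Ier2 lay above 0, and that of Fosb was −0.04.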

How the results depend on the processing

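Of 96 pairs of gene and class, 65 had the same sign under every alternative, as had 24 of the 40 pairs in hormone classes. The α ratio stayed past 1.5-fold under every alternative for Npas4 (0.94 to 1.44) and Nr4a1 (0.82 to 1.68), as did Npas4 in γ (0.59 to 1.03) and Atf3 in quiescent stellate-like barcodes (−0.96 to −0.63). Nr4a1 in β barcodes ranged from 0.44 to 0.89 and was under 1.5-fold in 4 of 12 alternatives, and it had no ratio with free RNA subtracted. The sum turned direction in δ (0.14 with the hormone at 25% or more) and in quiescent stellate-like barcodes (0.08 under stricter limits on barcodes). The number of members past the fold was within 1.5 times the value given for 116 of 150 pairs of class and alternative. With the hormone at 25% or more it was 2 in β, 4 in α, 2 in δ, 1 in nonendocrine and 1 in ductal-like barcodes. It was 0 in β under stricter limits on barcodes (1000 genes or more, 5% mitochondrial UMIs or less), and without hormone genes in the total. With TMM factors it was 0 in β, 2 in activated and 2 in quiescent stellate-like barcodes, and without ribosomal protein and mitochondrial genes 1 and 2 in the stellate-like classes. With free RNA subtracted it was 4 in β, 1 in δ and 2 in quiescent stellate-like barcodes. With equal weight of barcodes it was 0 in β, 1 in δ, 2 in quiescent stellate-like and 2 in ductal-like barcodes. Without the 1% of barcodes with most member UMIs it was 1 in δ and 1 in ductal-like barcodes, and without limits on barcodes 2 in quiescent stellate-like and 1 in ductal-like barcodes. At 5000 UMIs it was 2 in β, 1 in δ, 5 in quiescent stellate-like and 2 in ductal-like barcodes, and at 2000 UMIs 2 in δ, 2 in γ and 2 in ductal-like barcodes. At a fold of 2 it was 0 in β, 1 in α, 0 in γ and 0 in quiescent stellate-like barcodes. The cause was not tested. Leaving out shared barcodes and weighting by the WT make-up were chosen after seeing the data. No paired analysis was possible because each genotype is 1 library and the labels give no shared replicates.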
